A study of Mus musculus with 20 samples.

Results

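Sugar-binding proteins of activated microglia were followed through 9 genes chosen by symbol: the C-type lectin receptors *Clec7a*, *Clec4a2*, *Clec4a3* and *Clec5a*, the galectins *Lgals1*, *Lgals3*, *Lgals8* and *Lgals9*, and the galectin-binding glycoprotein *Lgals3bp*. All 9 were found among the 39017 gene identifiers of the count table. Adult male C57BL/6 mice (C57BL/6J in the study's methods) received lateral fluid percussion injury (FPI), a pulse of fluid against the exposed dura of the left parietal cortex, or sham injury, in which craniectomy, anesthesia and connection to the device were the same but no pulse was released. At 7 days, microglia (CD11b+ with intermediate CD45) and astrocytes (ACSA-2+) were sorted from the ipsilateral forebrain, and total RNA of 1 cell type from 1 mouse gave 1 library. Each of the 4 groups (sham microglia, FPI microglia, sham astrocytes and FPI astrocytes) had 5 libraries, 20 in all. By design FPI and sham differed in the pulse, and no other genotype, agent or time point entered. The study kept only mice with a righting time over 5 min, which it measured as an indicator of injury severity.

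C-type lectin receptors sit in the membrane of myeloid cells and read glycans on microbes and on the body's own cells, signalling either through the kinase Syk and adaptors with activating motifs or through phosphatases that damp activation. Galectins are soluble proteins that bind beta-galactosides, act outside the cell as crosslinkers of glycoproteins, and inside it as detectors of ruptured lysosomes. In the brain, dectin-1 (the product of *Clec7a*) and galectin-3 (the product of *Lgals3*) are widely used as marks of microglia that have left the homeostatic state.

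The libraries held 5623349 to 13110857 counts in sham microglia, 6890710 to 8396868 in FPI microglia, 7998479 to 10917112 in sham astrocytes and 6470553 to 10194999 in FPI astrocytes. Levels are counts per 1000000 (CPM) on the scale of TMM factors, which correct for differences in library composition. Sorted identity was read from marker lists: 12 microglial markers summed to between 20710 and 35460 CPM in the microglia and to between 107 and 287 CPM in the astrocytes, while 10 astrocyte markers summed to between 10050 and 32440 CPM in the astrocytes and to between 250.2 and 604 CPM in the microglia. Microglia replicates 1 to 3 and replicates 4 and 5 come from different series of library names in both conditions, and the FPI astrocyte library with number 5 is named with the suffix of microglia and the animal of astrocyte library 2, so the results that these libraries move most are given with and without them. Each cell type was tested alone with edgeR's quasi-likelihood test, and calls required a Benjamini-Hochberg adjusted p below 0.1 and a log2 fold change beyond 0.6 in either direction. In bulk RNA of sorted cells, a change in the number of cells that express a gene and a change in RNA per cell cannot be told apart.

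Promoters of 3 members are shown here because FPI moved 2 of these genes by about the same fold and left the third near its sham level. They are RefSeq windows on GRCm38.p6, written 5′ to 3′ on the gene's strand from 250 bases before the start site to 50 bases from it onward. Capitals mark matches to the core of the interferon-stimulated response element, GAAANNGAA, read on the opposite strand as TTCNNTTTC, or to the ETS core GAGGAA. All lie on the minus strand, at chr6:129472730-129473029 for *Clec7a*, chr11:118401910-118402209 for *Lgals3bp* and chr11:78984875-78985174 for *Lgals9*.
Clec7a: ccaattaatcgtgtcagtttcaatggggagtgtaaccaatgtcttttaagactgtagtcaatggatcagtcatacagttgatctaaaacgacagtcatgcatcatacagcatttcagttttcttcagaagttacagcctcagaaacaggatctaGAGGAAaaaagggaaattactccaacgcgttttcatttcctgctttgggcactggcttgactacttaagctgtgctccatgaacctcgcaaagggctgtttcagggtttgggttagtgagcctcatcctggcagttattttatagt
Lgals3bp: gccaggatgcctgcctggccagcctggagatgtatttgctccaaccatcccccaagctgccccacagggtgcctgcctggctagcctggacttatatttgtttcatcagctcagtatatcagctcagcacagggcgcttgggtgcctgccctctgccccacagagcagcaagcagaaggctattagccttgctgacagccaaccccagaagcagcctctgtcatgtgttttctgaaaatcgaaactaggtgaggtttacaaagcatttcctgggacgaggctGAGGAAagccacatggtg
Lgals9: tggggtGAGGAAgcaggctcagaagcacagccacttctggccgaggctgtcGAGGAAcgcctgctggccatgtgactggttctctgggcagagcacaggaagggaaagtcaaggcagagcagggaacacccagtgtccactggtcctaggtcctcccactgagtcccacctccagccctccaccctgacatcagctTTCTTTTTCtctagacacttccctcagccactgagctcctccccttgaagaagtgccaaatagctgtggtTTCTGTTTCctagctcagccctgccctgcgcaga

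Of the 9 members, 8 had a promoter entry, in 10 windows, and *Lgals1* had none. GAAANNGAA, like the other motifs searched on both strands, was held by 1 of the 10 windows, that of *Lgals9*, with matches that begin at positions -54 and 16 from the start site (position 0), and by 8.56% of all 32851 promoter windows. GAGGAA was held by 6 of the 10 windows, which belong to 5 members, *Clec7a*, *Clec4a3*, *Clec5a*, *Lgals9* and *Lgals3bp*, and by 28.3% of all windows. Both *Clec7a* windows overlap and hold the same GAGGAA, at -96 and -90 from their start sites, so this site is counted in each. The longer PU.1 core GAGGAAGT, which contains GAGGAA, was in 3.2% of all windows and in none of the members', and the gamma-activated site TTCNNNGAA was in 8.3% of all windows and, among the members, only in that of *Clec4a2*. A match describes letters in this window and no match says only that the letters are not there.

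In microglia, FPI raised the RNA of a receptor, a galectin and a galectin-binding glycoprotein: *Clec7a*, *Lgals1* and *Lgals3bp* were each about 4-fold higher than in sham, and the other 6 members were not called. The 3 calls of 9 members were all higher, where 2.35% of the 12143 genes tested in microglia were called in either direction and 2.13% were called higher. The same 3 members had all 5 FPI libraries above all 5 sham libraries, which held for 2.11% of the genes tested. The members were chosen with earlier results of these data known, and the paper lists *Clec7a* and *Lgals3bp* among its top microglial genes. These shares are therefore given for scale and do not test the members as a set. All 9 members passed the filter on low counts in microglia. By subgroup, the median log2 fold change was -0.11 for the 4 C-type lectin receptors and 0.86 for the 4 galectins, against -0.0094 over all genes tested.

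**Figure D1:**
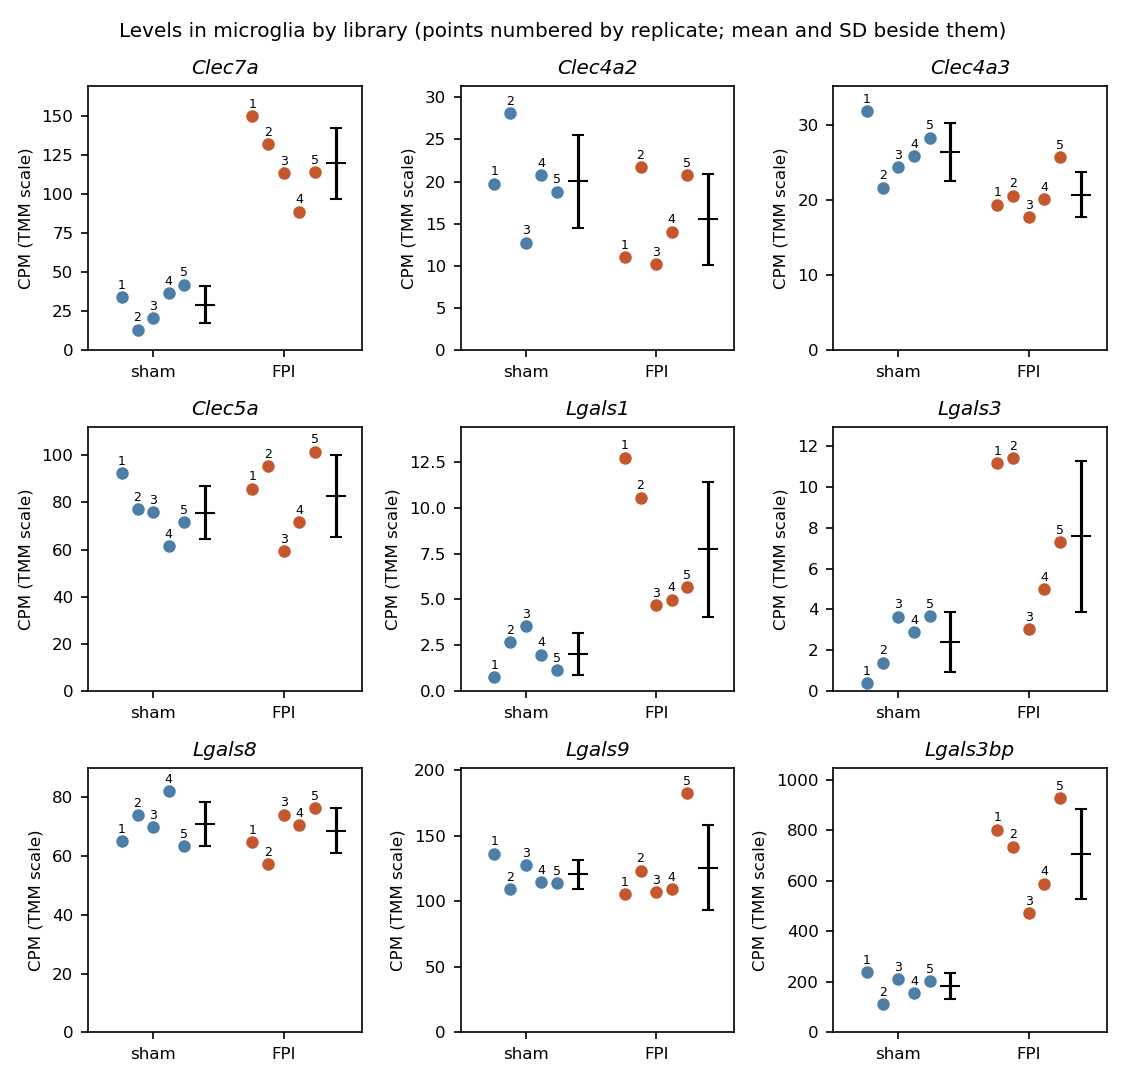
CPM of each member in the 10 microglia libraries, with points numbered by replicate and the mean and SD (n = 5) beside each group; each panel has its own axis from 0. Clec7a, Lgals1 and Lgals3bp have FPI points wholly above the sham points, Lgals3 has 4 of 5 FPI points above the highest sham point, and the other 5 genes overlap.

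Among the receptors, *Clec7a* encodes dectin-1, an activating receptor for beta-glucans. Its gene, ENSMUSG00000079293, spans chr6:129461591-129472779 on the minus strand of GRCm38, and GENCODE M21 gives it the biotype polymorphic pseudogene, a gene intact in some strains and disrupted in others. The 5 sham microglia libraries held 34.1, 13.3, 20.6, 36.7 and 41.9 CPM of *Clec7a* in replicate order, and the 5 FPI libraries held 149.6, 132, 113, 88.7 and 114 CPM. The lowest FPI library stood above the highest sham library by more than the whole range within sham. FPI over sham was 2.04 on the log2 scale (SE 0.24, 95% interval 1.54 to 2.55, adjusted p 6e-05, edgeR), which ranked 10 by p among the genes tested. In microglia replicates 1 to 3 alone it was 2.55 (SE 0.26, adjusted p 5.62e-05, edgeR) and in replicates 4 and 5 alone 1.37 (SE 0.22, adjusted p 0.00839, edgeR), so the call held in each series of library names with a smaller fold in the second. Summed markers of border macrophages also differed between these series, at 174 to 503 CPM in replicates 1 to 3 of both conditions and 22.7 to 117 CPM in replicates 4 and 5, and their part in the difference was not tested.

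*Clec5a* encodes a receptor with a short tail that signals through the adaptor DAP12 (the product of *Tyrobp*). It lies at chr6:40574894-40585821 on the minus strand. Sham microglia held 92.4, 77.2, 75.9, 61.4 and 71.6 CPM and FPI microglia 85.9, 95.4, 59.4, 71.6 and 102 CPM. The FPI values lay on both sides of the sham range, and FPI over sham was 0.13 on the log2 scale (SE 0.15, 95% interval -0.19 to 0.45, adjusted p 0.856, edgeR), an interval that leaves out the fold minimum of 0.6. Per kilobase of exon, the level of *Clec5a* was above that of *Clec7a* in every sham library and below it in every FPI library.

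*Clec4a2* and *Clec4a3* are neighbours in a cluster of related receptors on chromosome 6, at 123106428 to 123143999 and 122952515 to 122969875 on the plus strand, and *Clec4a2* encodes an inhibitory receptor that recruits phosphatases. Of *Clec4a3*, sham microglia held 31.9, 21.7, 24.4, 25.9 and 28.3 CPM and FPI microglia 19.4, 20.6, 17.7, 20.1 and 25.7 CPM. In 4 of 5 FPI libraries it was under the lowest sham library, and replicate 5 was within the sham range. FPI over sham was -0.35 on the log2 scale (SE 0.19, p 0.0744, adjusted p 0.516, edgeR), so the difference was not called. Of *Clec4a2*, sham libraries ran from 12.8 to 28.1 CPM and FPI libraries from 10.2 to 21.7 CPM, with 2 of 5 FPI libraries under the sham range and a difference of -0.37 on the log2 scale (SE 0.26, 95% interval -0.92 to 0.18, adjusted p 0.708, edgeR). Of the 100-base windows in *Clec4a2* transcripts, 2.14% were also found in those of *Clec4a4*, and none of the other members shared such a window with another gene.

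*Lgals3bp* encodes a secreted glycoprotein that binds galectin-3 and is known as an interferon-induced gene. It lies at chr11:118392751-118402092 on the minus strand (ENSMUSG00000033880). Sham microglia held 239, 111, 209.9, 156 and 204 CPM and FPI microglia 802, 735, 472, 589 and 929 CPM. The lowest FPI library was close to 2-fold above the highest sham library. Its log2 fold change was 1.94 (SE 0.20, 95% interval 1.53 to 2.36, adjusted p 2.56e-05, edgeR), which ranked 3 by p among the genes tested, with 1.84 (SE 0.24) within replicates 1 to 3 and 2.09 (SE 0.22) within replicates 4 and 5. The 5 FPI libraries were 2.57-fold to 5.05-fold over the sham mean.

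The galectins divided by level as well as by change. *Lgals1*, at chr15:78926725-78930465 on the plus strand (ENSMUSG00000068220), encodes the secreted, dimeric galectin-1. Sham microglia held 0.774, 2.68, 3.53, 2.01 and 1.16 CPM, from 6, 38, 31, 18 and 6 reads, and FPI microglia held 12.7, 10.5, 4.69, 5.00 and 5.66 CPM. All FPI libraries were above all sham libraries, and FPI replicates 1 and 2 stood apart from the other 3. Its log2 fold change was 1.90 (SE 0.49, 95% interval 0.87 to 2.92, adjusted p 0.0532, edgeR). The call was lost when replicate number was a block (1.92, adjusted p 0.122, edgeR), within replicates 1 to 3 (1.97, adjusted p 0.141) and within replicates 4 and 5 (1.72, adjusted p 0.46), while the fold stayed between 1.64 and 2.17 on the log2 scale when any 1 library was left out. Without sham replicate 1, 2, 4 or 5, or without FPI replicate 1 or 2, the adjusted p rose to between 0.108 and 0.186 (edgeR).

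*Lgals3*, at chr14:47367751-47386160 on the plus strand (ENSMUSG00000050335), encodes galectin-3, which gathers on damaged lysosomes and at phagocytic cups. Sham microglia held 0.387, 1.41, 3.65, 2.90 and 3.69 CPM and FPI microglia 11.1, 11.4, 3.05, 5.00 and 7.27 CPM. FPI replicate 3 was inside the sham range and the other 4 FPI libraries were above it. The log2 fold change was 1.67 (SE 0.54, 95% interval 0.53 to 2.80, p 0.00614, adjusted p 0.151, edgeR), so it was not called. DESeq2 called it (1.68, adjusted p 0.0441), as did edgeR without the filter on low counts (1.66, adjusted p 0.0963) and without FPI replicate 3 (1.87, adjusted p 0.0732). Within microglia replicates 1 to 3 the value was 2.21 (SE 0.74, adjusted p 0.17, edgeR) and within replicates 4 and 5 it was 0.91 (SE 0.71, adjusted p 0.684, edgeR).

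FPI replicates 1 and 2, the highest libraries for *Clec7a*, *Lgals1* and *Lgals3*, were also highest for some markers of other cell types. Fibronectin (*Fn1*), from the monocyte list, was at 146 and 168 CPM in them, between 31.7 and 54.7 CPM in the other 3 FPI libraries and between 15.9 and 40.0 CPM in sham. Of the 9 monocyte markers that were found, 5 could be tested and *Fn1* was the 1 called. The summed level of the 9 ran from 32.6 to 78.7 CPM in sham and from 48.4 to 219.5 CPM in FPI. In FPI replicates 1 and 2 the sum was 180.5 and 219.5 CPM, most of it *Fn1*. *Fn1* was also read in the astrocyte libraries, at 10.8 to 153 CPM in sham and 79.2 to 214.5 CPM in FPI. Its source in the microglia libraries was not tested. Of the genes that define classical monocytes, *Ly6c2* was at 0 counts in all 10 microglia libraries. Whether it shares sequence with other genes, which can limit its counts, was not checked. *Ccr2* was read in all 10 microglia libraries, with 15 to 60 counts in sham and 1 to 74 in FPI. *Ccr2* was highest in FPI replicate 2, at 9.17 CPM, and was at 3.03 CPM in FPI replicate 1. Summed astrocyte markers were 596 and 604 CPM in FPI replicates 1 and 2, 305 to 356 CPM in the other FPI libraries and 250.2 to 359 CPM in sham. Summed border macrophage markers were 376 and 239 CPM in FPI replicates 1 and 2 and 58.7 to 174 CPM in the other FPI libraries. In sham they ran from 22.7 to 503 CPM. The part of such cells in the *Clec7a*, *Lgals1* and *Lgals3* values was not tested.

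*Lgals9* and *Lgals8* encode galectins with a pair of carbohydrate-binding domains in tandem: galectin-9 is a ligand of the receptor Tim-3 (the product of *Havcr2*) and galectin-8 marks ruptured vesicles for autophagy. *Lgals9*, at chr11:78962974-78984946 on the minus strand, was at 137, 109, 128, 115 and 114 CPM in sham microglia and at 106, 123, 107, 109 and 182 CPM in FPI microglia. FPI replicate 5 was the highest of all 10 libraries and 3 of the other FPI libraries were under the lowest sham library. On the log2 scale FPI over sham was 0.06 (SE 0.15, 95% interval -0.25 to 0.37, adjusted p 0.947, edgeR) and -0.12 without FPI replicate 5. *Lgals8*, at chr13:12439415-12464944 on the minus strand, ran from 63.2 to 81.9 CPM in sham and from 57.1 to 76.1 CPM in FPI, or -0.05 for FPI over sham on the log2 scale (SE 0.13, 95% interval -0.32 to 0.22, adjusted p 0.949, edgeR). The intervals of both leave out a change of 0.6. Of the *Lgals8* exon bases, 4.2% lie opposite exons of *Heatr1* on the other strand, and the strand setting used for counting is not given in the sources used here.

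Compared per kilobase of exon on a scale shared by all 20 libraries, the order of the members changed with FPI. In sham microglia, *Lgals3bp* (63.9 ± 16.0 CPM per kb, SD, n = 5) and *Lgals9* (56.1 ± 4.09) had the highest levels, with overlapping ranges. *Clec4a3* (19.8 ± 2.46), *Clec5a* (19.6 ± 2.65) and *Lgals8* (19.1 ± 2.50) followed and did not differ beyond their spread. *Clec7a* (11.0 ± 4.38) and *Clec4a2* (6.85 ± 2.05) overlapped each other, as did *Lgals1* (2.25 ± 1.25) and *Lgals3* (1.29 ± 0.77) at the low end. In FPI microglia *Lgals3bp* (243 ± 55.7 CPM per kb) was above *Lgals9* (57.7 ± 13.6) without overlap, and *Clec7a* (44.6 ± 8.32) came next, overlapping *Lgals9* and above all libraries of *Clec5a* (21.2 ± 4.08). *Lgals8* (18.3 ± 2.03) overlapped *Clec5a* above it and *Clec4a3* (15.3 ± 1.88) below it, and *Lgals1* (8.40 ± 3.93), *Clec4a2* (5.23 ± 1.79) and *Lgals3* (4.00 ± 1.95) each overlapped the next. *Clec7a* thus went from the sixth to the third place among the 9, and *Lgals3* was last in both conditions.

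**Figure D2:**
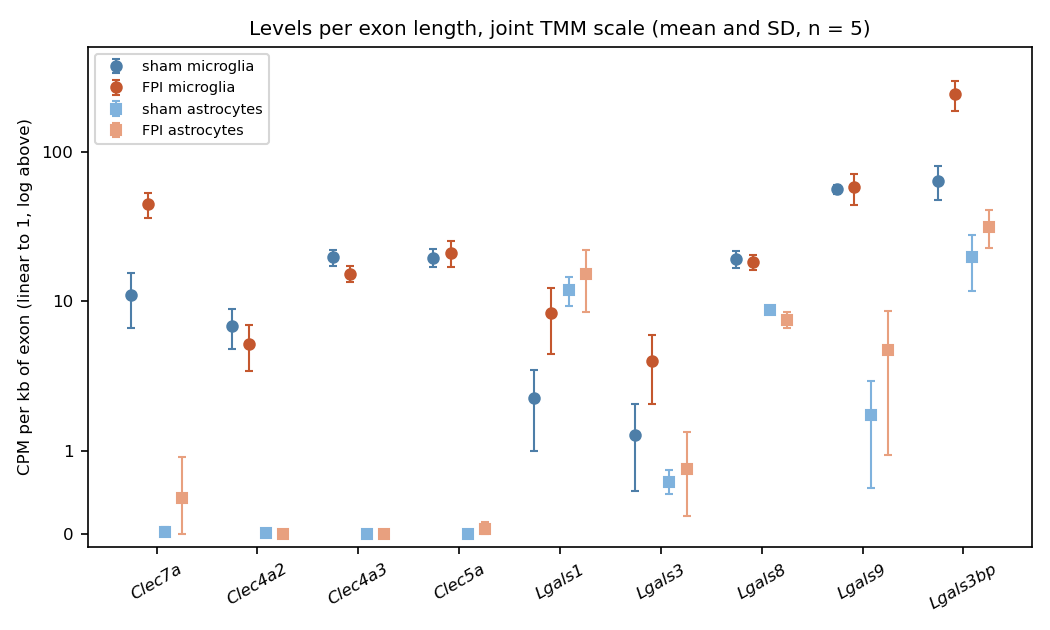
Level of each member as CPM per kilobase of exon in the 4 groups, on 1 scale for all 20 libraries; points are means, bars are SD (n = 5), and the axis is linear up to 1 and logarithmic above. Lgals3bp is the highest member in all 4 groups, Clec7a moves up in FPI microglia, the 4 receptors are near 0 in astrocytes, and Lgals1 is higher in sham astrocytes than in sham microglia.

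In sham mice the receptors were read almost only in microglia, while every galectin and *Lgals3bp* were also read in astrocytes. Of the 9 members, 8 were called between sham microglia and sham astrocytes, where 60.9% of the 15077 genes tested were called, 25.3% of them higher and 35.6% lower in microglia. *Clec5a* had 3395 counts over the sham microglia libraries and 0 over the sham astrocyte libraries, and *Clec4a3* had 1146 and 0. Against a floor of 3 counts over the group, these are at least 1170-fold and 396-fold higher levels in microglia. *Clec7a* had 1178 counts against 3, a ratio of 407 (95% counting interval 139 to 1970), and *Clec4a2* had 946 against 3, a ratio of 327 (111 to 1590), intervals that cover counting error only. *Lgals9* was 5.00 higher on the log2 scale in microglia (SE 0.50, adjusted p 2.27e-08, edgeR), *Lgals3bp* 1.70 (SE 0.28, adjusted p 1.93e-05) and *Lgals8* 1.11 (SE 0.13, adjusted p 1.95e-07).

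*Lgals1* alone went the other way. Sham astrocytes held 8.17 to 14.0 CPM of it, all above the 0.774 to 3.53 CPM of sham microglia, which is a difference of -2.37 on the log2 scale (SE 0.41, adjusted p 4e-05, edgeR). In FPI microglia its 4.69 to 12.7 CPM overlapped that astrocyte range. *Lgals3* was not called between the cell types (1.02, SE 0.68, adjusted p 0.205, edgeR), and without sham microglia replicate 1, its lowest library, it was (1.33, adjusted p 0.0889).

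In astrocytes FPI gave no call among the members. The filter on low counts kept 5 of the 9, the galectins and *Lgals3bp*, and 0 of these 5 were called, where 0.00728% of the 13741 genes tested were called. Before adjustment, *Lgals9* and *Lgals3bp* passed p below 0.05, both higher in FPI, as did 1.57% of the genes tested, and DESeq2 and edgeR without the filter also called 0 members. Summed astrocyte markers were lower in replicates 4 and 5 of both conditions, at 10050 and 15960 CPM in sham and 11770 and 15680 CPM in FPI, than in replicates 1 to 3, at 24980 to 30970 and 19650 to 32440 CPM. No member was called in either set of replicates alone, a split chosen after seeing the data.

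*Lgals9* was at 1.30, 4.44, 1.24, 4.01 and 7.27 CPM in sham astrocytes and at 1.89, 7.03, 9.48, 8.58 and 23.9 CPM in FPI astrocytes. In FPI, 3 of 5 libraries were above the highest sham library, and replicate 1 was inside the sham range. The log2 fold change was 1.47 (SE 0.63, 95% interval 0.10 to 2.83, p 0.0372, adjusted p 0.999, edgeR), and 0.87 (SE 0.60) without FPI replicate 5. The libraries with the most *Lgals9* in each condition, replicate 5 of both, also had the highest summed markers of pericytes and fibroblasts, 5763 CPM in sham and 8138 CPM in FPI against 1102 to 3014 and 378 to 4397 in the others. Replicate 1 of each condition had the lowest summed endothelial markers, 33.2 and 137 CPM, and low *Lgals9*. The part of vascular cells in these values was not tested.

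*Lgals3bp* was at 80.9, 56.3, 69.4, 24.2 and 44.0 CPM in sham astrocytes and at 65.9, 104, 91.7, 63.5 and 123 CPM in FPI astrocytes. In FPI, 3 of 5 libraries were above the highest sham library and the other two lay inside the sham range, and FPI over sham was 0.71 on the log2 scale (SE 0.30, 95% interval 0.06 to 1.36, p 0.0358, adjusted p 0.999, edgeR). It was 0.55 (SE 0.31) without FPI replicate 5, 0.34 (SE 0.22) within replicates 1 to 3 and 1.44 (SE 0.41) within replicates 4 and 5. *Lgals1* ran from 8.17 to 14.0 CPM in sham and from 8.12 to 22.9 CPM in FPI, or 0.38 for FPI over sham on the log2 scale (SE 0.30, adjusted p 0.999, edgeR). *Lgals3* was read by 9 to 13 counts in each sham library and by 0 to 24 counts in FPI, which leaves a 95% interval of -1.28 to 1.94 for its log2 fold change. *Lgals8* ran from 30.4 to 33.4 CPM in sham and from 24.0 to 31.7 CPM in FPI (log2 fold change -0.20, SE 0.13, adjusted p 0.999, edgeR), and 3 of 5 FPI libraries were under the lowest sham library.

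**Figure D3:**
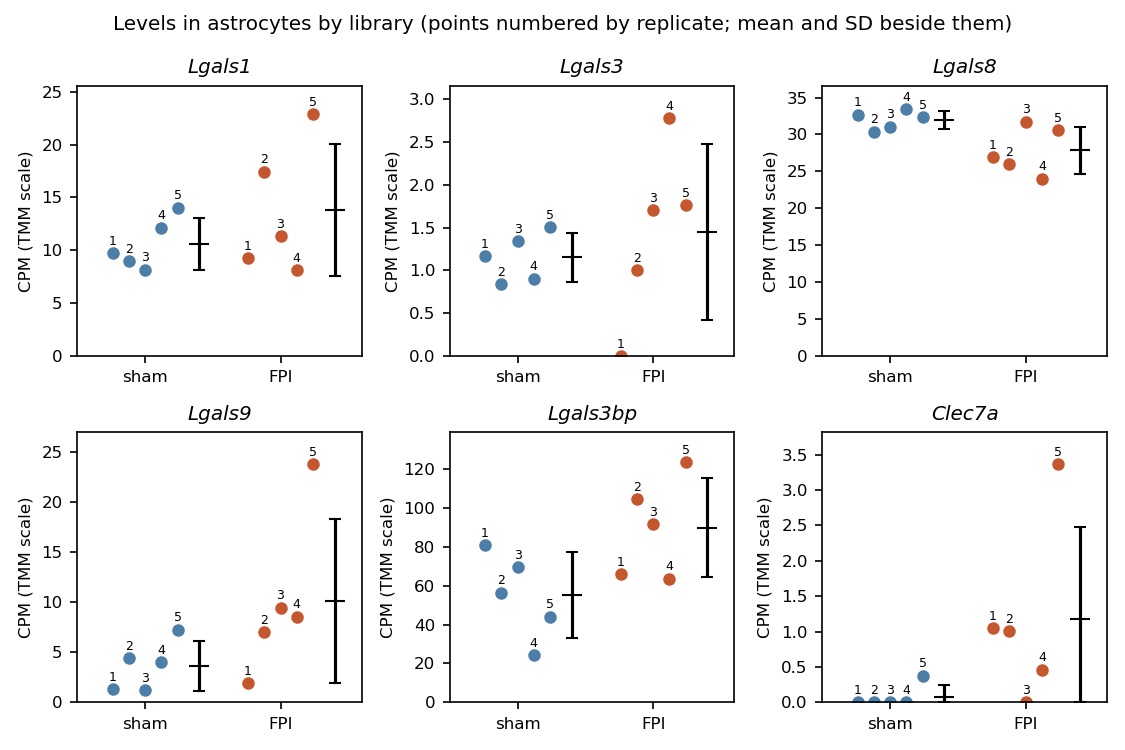
CPM of the 5 members tested in astrocytes and of Clec7a, which was under the filter on low counts, in the 10 astrocyte libraries; points are numbered by replicate, with the mean and SD (n = 5) beside each group, and each panel has its own axis from 0. FPI and sham points overlap in every panel, and FPI replicate 5 is the highest point for Lgals1, Lgals9, Lgals3bp and Clec7a.

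The 4 receptors were read by few or no counts in astrocytes. *Clec4a3* had 0 counts in all 10 libraries, *Clec4a2* had 3 counts, all in sham replicate 4, and *Clec5a* had 9 counts, in FPI replicates 4 and 5. *Clec7a* had 3 counts in sham, all in replicate 5, and 43 in FPI, of which 21 were in replicate 5 and 0 in replicate 3. Astrocyte *Clec7a* was 0.261% of the microglial level in sham and 0.994% in FPI, or 0.531% in FPI without replicate 5. The microglial markers moved in the same direction, with a median of 0.0418% of their microglial level in sham astrocytes and 0.359% in FPI astrocytes. The highest marker was at 7.15% in sham and 8.95% in FPI. *Clec7a* lay above the marker median and under the highest marker in both conditions. For *Lgals9* the share was 3.1% in sham and 8.27% in FPI (5.52% without replicate 5). These shares were far above the marker medians and under the highest marker only. *Lgals3bp* (30.8% and 13%) and *Lgals8* (46.2% and 41.3%) were above every microglial marker. Whether the *Lgals9* reads came from astrocytes was not tested.

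Whether FPI acted differently on the 2 cell types was tested as the difference of the effects in a fit of all 20 libraries. It was called for 0 of the members, where 0.199% of 15077 genes were called. The difference, microglia minus astrocytes on the log2 scale, was 1.25 for *Lgals3bp* (SE 0.39, 95% interval 0.44 to 2.05, p 0.00402, adjusted p 0.37, edgeR), 1.51 for *Lgals1* (SE 0.56, p 0.0129, adjusted p 0.516) and -1.39 for *Lgals9* (SE 0.62, p 0.0373, adjusted p 0.669). For *Lgals3* it was 1.33 (SE 0.96, adjusted p 0.886) and for *Lgals8* 0.16 (SE 0.18, adjusted p 0.976). *Lgals3bp* was called (1.58, adjusted p 0.0936, edgeR) when the astrocyte libraries of the 3 animals that gave both cell types were left out. No such difference is given for the receptors, whose astrocyte groups held between 0 and 43 counts.

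**Figure D4:**
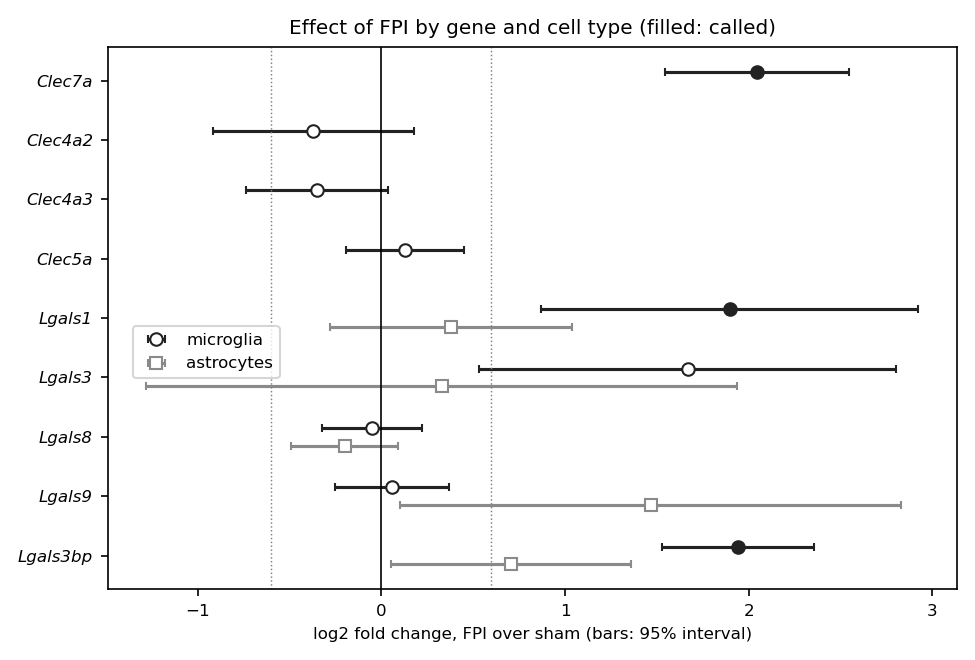
Log2 fold change of FPI over sham for each member, circles for microglia and squares for astrocytes, with bars of the 95% interval; filled symbols were called, and dotted lines stand at the fold minimum of 0.6 in either direction. The 3 filled symbols, Clec7a, Lgals1 and Lgals3bp in microglia, lie near 2, and the 5 astrocyte values have open symbols.

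Other genes of the lectin pathways were read in the same fits. Of 38 further C-type lectin genes, 15 could be tested in microglia and 2 were called, both higher, where 2.13% of all genes tested were called higher. They were *Cd72*, a transmembrane lectin with inhibitory motifs (8.34 ± 3.86 to 32.3 ± 9.21 CPM, SD, n = 5, log2 fold change 1.94, adjusted p 0.000598, edgeR), and *Clec2d*, a ligand of natural killer cell receptors (17.5 ± 5.59 to 32.5 ± 4.54 CPM, 0.89, adjusted p 0.0409, edgeR). The median log2 fold change of the 15 was 0.02. Of the other galectin genes, *Lgals4* and *Lgalsl* could be tested and 0 were called, with values of -0.03 and 0.02.

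Downstream of the receptors, 0 of 18 signalling genes were called in microglia, where 2.35% of all genes tested were called. Before adjustment, 3 of the 18 were higher and 1 was lower at p below 0.05 (edgeR). The adaptors with activating motifs had log2 fold changes of 0.58 for *Fcer1g* (SE 0.19, adjusted p 0.157, edgeR) and 0.34 for *Tyrobp* (SE 0.14, adjusted p 0.308, edgeR), and the kinase *Syk* had -0.14 (SE 0.12, adjusted p 0.774, edgeR). *Pik3ap1*, which couples receptors to phosphoinositide 3-kinase, passed the adjusted threshold under the fold minimum (0.38, adjusted p 0.0819, edgeR). Of 7 genes of inhibitory signalling 0 were called, against the same 2.35%, and *Dok3* had the smallest p (-0.56, SE 0.19, adjusted p 0.195, edgeR). Medians of the 2 lists were -0.03 and -0.11.

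Among 17 glycoproteins and receptors that galectins bind, 2 were called in microglia, both higher, against the same 2.13%, and the median log2 fold change was 0.16. *Cd44*, the hyaluronan receptor, was at 2.40 ± 1.10 CPM in sham and 12.6 ± 8.10 CPM in FPI (SD, n = 5), 2.38 higher on the log2 scale with an adjusted p of 0.00959 (edgeR), and *Cspg4*, the NG2 proteoglycan, went from 1.38 ± 0.64 to 6.90 ± 4.99 CPM (2.29, adjusted p 0.0349, edgeR). *Cspg4* also marks oligodendrocyte precursors and pericytes and was at 279 ± 176 CPM in sham astrocyte libraries. Of the 8 oligodendrocyte lineage markers 6 could be tested in microglia. Of these 2 were called higher, and 1 was lower at an unadjusted p below 0.05 (edgeR) and not called. The 8 markers summed to 132 to 189 CPM in sham and 182 to 270.1 CPM in FPI. *Cspg4* is itself on that list, so it is among the called markers and in the sums. The part of such cells was not tested. *Havcr2* (-0.25, adjusted p 0.601) and *Trem2* (0.05, adjusted p 0.946), receptors for galectin-9 and galectin-3, were not called (edgeR). *Nrp1*, a co-receptor for semaphorins and VEGF, passed the adjusted threshold under the fold minimum (0.57, SE 0.12, adjusted p 0.0151, edgeR). Of 13 genes that handle damaged lysosomes and 18 that build galectin ligands, 0 were called, against 2.35% of all genes tested, with medians of 0.06 and 0.02. In astrocytes 0 genes of any of these lists were called, where 0.00728% of all genes tested were called.

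Genes whose pattern over the 10 microglia libraries was most like that of a called member were found by the smallest root mean square difference of centred log2 CPM among the 12143 genes tested. They were *Helz2* (0.22) and *Chst2* (0.29) for *Clec7a*, *Rtp4* (0.29) and *Sdc3* (0.31) for *Lgals3bp*, and *Fn1* (0.39) and *Bst2* (0.46) for *Lgals1*. The likeness includes the shift between sham and FPI that the members share with these genes.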

How the data were processed

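Sequencing libraries were made by the authors with a stranded total RNA kit for picogram input, 1 library per cell type and mouse without pooling. Reads were aligned to mm10 (GRCm38.p6) with HISAT2 2.1.0 and counted per gene with featureCounts, per the submitters' processing notes. The values used here are the deposited counts, whole numbers of reads per Ensembl gene with no normalization, and the authors' own tests (DESeq2 on salmon estimates) were not used. The 9 members and all gene lists were chosen with earlier results of these data known.

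Genes were filtered (filterByExpr), scaled (TMM) and tested with edgeR 4.0.16 (R 4.3.3) in each cell type alone, n = 5 per group. Contrasts across cell types came from 1 fit of 4 groups over the 20 libraries. CPM are counts per 1000000 of library total times TMM factor, and levels per kb use the union of exons in GENCODE M21 (GRCm38). P-values measure the spread between libraries, each taken as a separate mouse. They treat libraries of the 3 animals with both cell types as independent. They also treat FPI astrocyte libraries 2 and 5 as separate mice, although the names of these libraries carry the same animal number. Intervals use the t distribution on the degrees of freedom of the fit. The interferon-stimulated response element was searched by 9 letters after a longer form had been tried. DESeq2 1.42.0 and the other alternatives are given in the closing section. Named genes are the 9 members, list genes that were called or whose role the text describes, and the 2 genes nearest in pattern to each called member.

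Replicate numbers were checked as pairs. Same-numbered sham and FPI libraries had correlations of deviations from -0.066 to 0.092 in microglia and from -0.009 to 0.452 in astrocytes, where 4 of 5 were over 0.1. Since not every pair passed and no label ties the numbers to a shared day or litter, the numbers were not taken as pairs. Library totals of 5623349 to 13110857 counts leave the receptors in astrocytes under the filter. They are given by counts, with fits under other filters for *Clec7a* only. Tables and figures used Python 3.11.15, pandas 2.3.3, numpy 2.4.6, scipy 1.17.1 and matplotlib 3.10.9.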

Additional observations from a re-analysis of the deposited data

Results flagged for a closer look

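*Lgals9* in FPI microglia replicate 5 was at 182.4 CPM, while the other 4 FPI libraries ran from 105.7 to 123.3 CPM. Its gap to the nearest library was 0.77 of the range of the group, above the critical value of 0.71 for 5 libraries. It was the 1 library singled out in 30 groups of 5 tested in this way, where chance singles out about 1 group in 20. The same library was the highest of the FPI microglia for *Lgals3bp*, *Clec5a*, *Clec4a3* and *Lgals8*, and its summed microglial markers, 35460 CPM, were the highest of the 10 microglia libraries. The cause was not tested.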

How the results depend on the processing

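The calls of *Clec7a* and *Lgals3bp* in microglia held under every alternative run: DESeq2, RLE factors, a filter of at least 1 count or of at least 10 counts in each library, robust estimation, replicate block, library name series as a term or each series alone, all 20 libraries together, other thresholds, and each library left out. The log2 fold change ran from 1.37 to 2.55 for *Clec7a* and from 1.80 to 2.09 for *Lgals3bp*. *Lgals1* also lost its call at an adjusted p below 0.05. Between 2 and 4 members were called across these settings.

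With the replicate number as a block, 255 genes and 2 members were called in microglia, 11 genes and 0 members in astrocytes, and *Lgals1* was the one member whose call changed. In astrocytes 39 genes were called with DESeq2, 9 with every gene of at least 1 count, 53 with all 20 libraries together, 3 in replicates 1 to 3 alone, and 0 in replicates 4 and 5 alone (a split added after seeing the data), with robust estimation, at least 10 counts in each library, FPI astrocyte libraries 2 and 5 summed or an adjusted p below 0.05. In microglia 99 genes were called within replicates 4 and 5 and 121 with all 20 libraries together. With 10 counts or more in each library, 4551 genes and 3 members were called between sham microglia and sham astrocytes, since that filter removes the receptors. The difference in the effect of FPI was called for 190 genes with DESeq2, 1 with at least 10 counts, 69 genes and 1 member without the astrocyte libraries of the animals with both cell types, and 8 without their microglia libraries. Leaving out 1 library gave 177 to 423 called genes in microglia (177 without sham or FPI replicate 2), 0 to 3 in astrocytes and 21 to 48 for the difference of effects (48 without FPI astrocyte replicate 3).

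Values near 0 changed sign: *Lgals8* in microglia to 0.0093 without sham replicate 4, 0.0091 without FPI replicate 2 and 0.015 within replicates 4 and 5, *Lgals9* in microglia to -0.12 without FPI replicate 5 and -0.16 within replicates 1 to 3, *Clec5a* to -0.040 within replicates 1 to 3, and *Lgals3* in astrocytes to -0.058 without FPI replicate 4. None of these was called. Over the fits that left out 1 library, the log2 fold change ran from -0.097 to 0.0093 for *Lgals8* and from -0.12 to 0.11 for *Lgals9* in microglia, and from -0.058 to 0.65 for *Lgals3* in astrocytes. The causes were not tested. Depth limits *Lgals1* and *Lgals3*, which had as few as 6 and 3 reads in a sham microglia library.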

Other observations

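The other genes of the lectin pathways also differed in level between the sham cell types, where 25.3% of the genes tested were called higher in microglia and 35.6% lower (edgeR). The 3 further galectin genes that could be tested were all called lower in microglia: *Lgalsl*, a galectin-like gene (log2 fold change -3.60, SE 0.41, 2.42 ± 0.85 CPM in sham microglia and 29.3 ± 9.18 CPM in sham astrocytes, SD, n = 5), *Lgals12* and *Lgals4* (-1.08, SE 0.43). *Lgals12* was at 0 counts in every microglia library of both conditions and at 1.17 to 1.86 CPM in sham astrocytes. Of 18 genes that signal from C-type lectin receptors, 14 were called higher in microglia and 2 lower, among them *Syk* at 8.54 higher on the log2 scale (SE 0.32). Of 7 genes of inhibitory signalling 6 were higher and 1 lower, and of 19 further C-type lectin genes 9 were higher and 5 lower, with medians of 3.88 and 1.46 against -0.15 over all genes tested.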
